A study of Mus musculus with 4 samples.

Results

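Binding of ATF4, a bZIP transcription factor that cells raise under amino acid or protein folding stress, was followed at 7 genes of cardiac excitation and cell coupling: the sodium channel genes Scn10a and Scn4b, the pacemaker channel genes Hcn2 and Hcn4, and the connexin genes Gja1, Gja5 and Gjc1. They were chosen by family and by where in the heart they are known to act, out of 21896 protein-coding gene models of the mouse. The data are peak lists from 2 ATF4 pull-down samples of heart ventricle from mice aged 4 weeks, in which chromatin was crosslinked, sheared and captured on streptavidin beads. The series also has 2 input samples of the same tissue and age, whose values are not analysed here. Strain, sex and genotype are not given in the sources used here. For the pull-down samples the antibody field of the labels reads AAV, without saying whether the captured ATF4 was the heart's own or supplied by a vector, or which cells carried it. The labels do not state that the samples came from separate animals, so an SD over both covers only the spread between these samples.

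Sodium channels carry the inward current that starts the action potential and spreads it through the heart. Pacemaker (HCN) channels pass the inward current that depolarizes nodal cells between beats. Connexins form the gap junctions through which the current passes from cell to cell. Gja1, which encodes Cx43, is the main connexin of working ventricle muscle, whereas Gja5 (Cx40) is known from atria, the fast-conducting His-Purkinje fibres and arterial endothelium, and Gjc1 (Cx45) from the nodes. Hcn4 is the main pacemaker channel gene of the sinus node. Hcn2 is expressed in ventricle muscle as well as in conduction tissue. Scn4b encodes a sodium channel beta subunit prominent in Purkinje fibres, and Scn10a encodes a pore-forming subunit best known from sensory neurons and linked to conduction in the heart. On this textbook ground Gja1 and Hcn2 were taken as working ventricle genes and the other 5 as conduction system genes. The tissue was whole ventricle, and conduction cells make up an unstated part of it, so from which cells a peak came cannot be told apart.

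Each pull-down sample has its own peak list (78746 peaks in replicate 1 and 88812 in replicate 2), and a series-wide list of 41639 peaks combines them. Values below are fold enrichments over a background taken to be constant, and so neither input nor local signal. This was read from the values, because each significance value of a replicate list went with 1 fold. There were 0 exceptions in replicate 1 and 6 in replicate 2. The series-wide fold is the authors' own; folds of single replicates were derived from it. Sequencing depth is unknown, so no counting error can be given. Peak number and strength were read in 2 windows, the gene ends (1 kb to each side of both ends of the gene model) and the gene body extended by 20 kb to each side. All 14 genes of a list of working ventricle muscle, such as Myl2 and Tnnt2, had a series-wide peak at their ends, against 1 of 10 endothelial genes, 1 of 10 genes of neurons and Schwann cells, and 34.9% of all genes. In each replicate list the endothelial and the neuronal list had 3 of 10 each, and all genes 48.2% in replicate 1 and 50.2% in replicate 2. The gene body with 20 kb set these lists less far apart. There all 14 working ventricle genes had a series-wide peak, as did 7 of 10 endothelial genes, 4 of 10 neuronal genes and 68.2% of all genes.

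At the gene ends, 2 of the 7 genes had a series-wide peak, Gja1 and Gjc1, which is 28.6%, against 34.9% of all protein-coding genes. In the gene body with 20 kb, 6 had one (85.7%), against 68.2% of all genes, and Scn4b was the exception. On the gene body alone the same 6 genes had one, against 48.4% of all genes, and with 5 kb around it again 6, against 55.8%. With 5 kb around the gene ends 5 genes had one, against 47.4%. The same counts, 2 and 6, came from replicate 1 alone (48.2% and 78% of all genes) and from replicate 2 alone (50.2% and 79.2%). The windows of the 7 genes held 23 series-wide peaks. All of them overlapped a peak in both replicates, as did 97.6% of the whole series-wide list. The single replicate lists held more peaks in these windows, 41 in replicate 1 and 43 in replicate 2. Of the 23 series-wide peaks, 11 lay on the gene model itself and 12 outside it. The median was 4 peaks per gene, against 1 over all genes, and per length it was 4.99 peaks per 100 kb of window, against 1.99 over all genes. The median highest fold was 19.9 over the 7 genes and 13.5 over all genes, with genes that lack a peak ranked lowest in both. These medians and counts describe the 7 genes, and no test of the list was made.

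**Figure D1:**
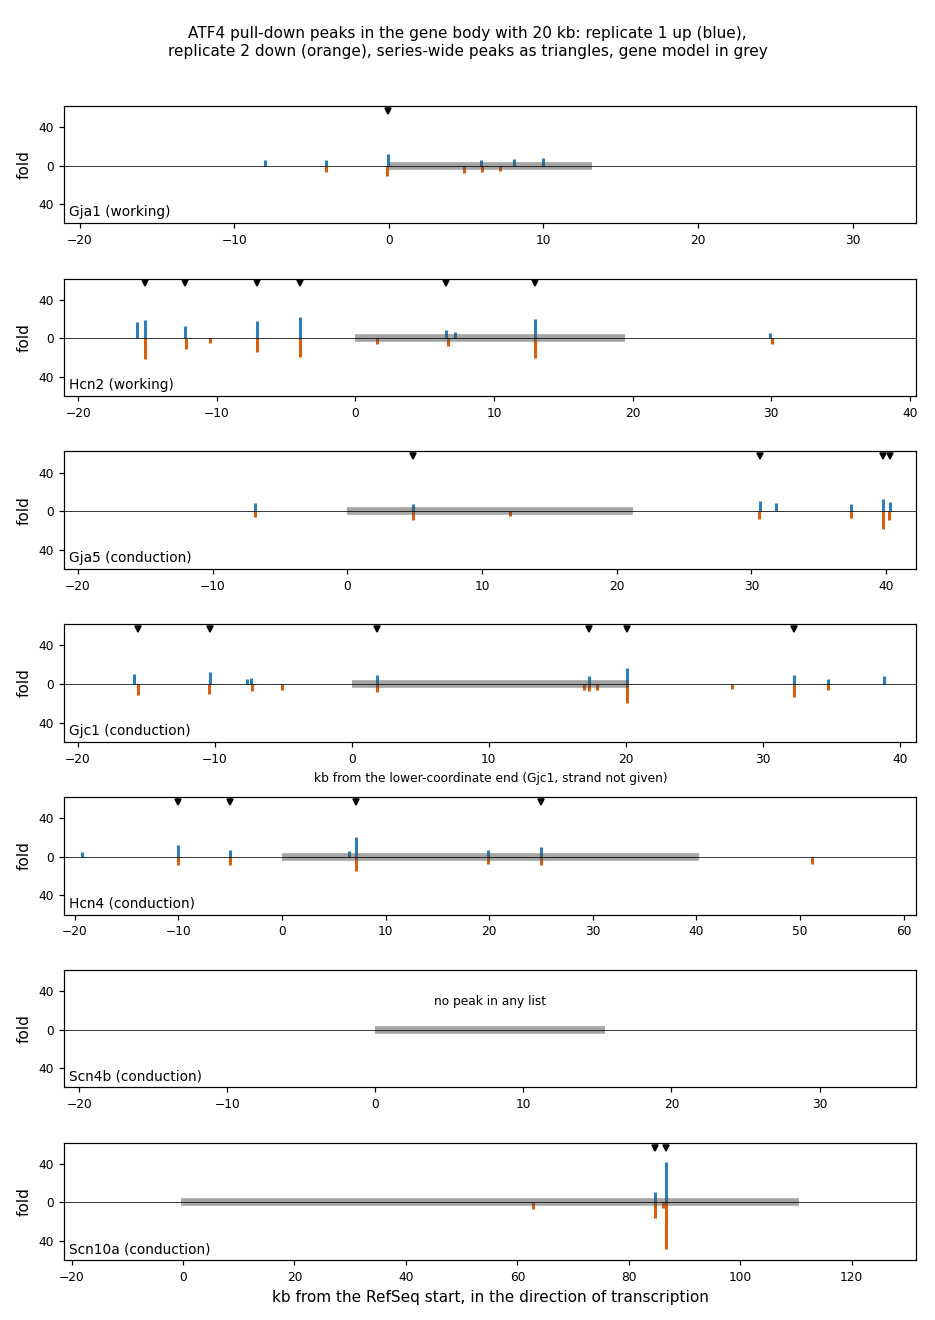
Peaks in the gene body with 20 kb of each of the 7 genes; the x axis is the distance in kb from the RefSeq start in the direction of transcription (for Gjc1, from the lower-coordinate end of the model), and stick height is the fold enrichment in replicate 1 (upward, blue) and replicate 2 (downward, orange). Black triangles mark the 23 series-wide peaks and grey bars the gene models; Gja1 has its one triangle at the start, Gja5 has 3 of 4 downstream of the gene, Scn10a has its tallest peak and a weaker one deep inside the gene, and Scn4b has no peak.

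The sodium channel genes stood at opposite ends of the 7. Scn10a (chromosome 9, 119608456 to 119719322, minus strand, mm10) held the strongest peak, at 119631860 to 119632659, inside the gene model. Its fold was 42.5 in replicate 1 and 47.9 in replicate 2, or 45.2 ± 3.80 (SD, n = 2). Both replicates therefore placed it well above every other peak at these genes, and their summits lay 11 bp apart. By series-wide fold it ranked 605 of 41639 peaks, and 98.5% of peaks were weaker. It lies 86.7 kb downstream of the RefSeq start of the gene and 23.4 kb from the far end of the model. Whether it falls in an exon or an intron could not be read from the gene table, which gives spans only.

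A weaker companion in Scn10a, at 119634236 to 119634516, lies 2.06 kb from it between summits. It had 11-fold enrichment in replicate 1 and 16-fold in replicate 2. The other peaks in this window were called in replicate 2 alone, at 5.76-fold and 6.65-fold. The window of 150.9 kb was the longest of the 7 and held only these 2 series-wide peaks, or 1.33 per 100 kb, a density above that of 39.5% of all genes. In contrast, the highest fold at Scn10a was above that of 97.1% of all genes. No peak of any list lay within 32 kb of its RefSeq start.

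Scn4b (chromosome 9, 45138624 to 45154155, plus strand) had no peak in any of the 3 lists, in the gene body or within 20 kb of it. This held for 17.7% of all protein-coding genes. The nearest peaks were 83.1 kb away in replicate 1, 67.5 kb away in replicate 2 and 120.2 kb away in the series-wide list, with folds of 6.50, 6.65 and 11.5. The gene thus sat in a stretch of 282.1 kb without a series-wide peak. Of all genes, 10.1%, 11.4% and 11.7% lay at least as far from a peak of these lists. Its neighbour Scn2b, which encodes another beta subunit, had none in its own window either.

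Both pacemaker channel genes had several peaks, none of them at the gene ends. Hcn4 (chromosome 9, 58822949 to 58863175, plus strand) had its strongest peak at 58829275 to 58830302, inside the model and 7.19 kb past the start. The peak had 20.5-fold enrichment in replicate 1 and 14.2-fold in replicate 2, or 17.3 ± 4.47 (SD, n = 2). The replicates differed here by 1.45 times, the widest gap towards replicate 1 among the 23 peaks. Another peak inside the gene, 25 kb past the start, had 10-fold enrichment in replicate 1 and 7.98-fold in replicate 2. Upstream peaks 5.02 kb and 10 kb before the start had series-wide folds of 8.42 and 12, and both lay on the model of the neighbouring gene Rec114.

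The start of Hcn4 carries the letters TGATGNAA, the core of the C/EBP-ATF response element (CARE) that ATF4 is known to bind with a C/EBP partner. It is shown because it was the only match to that motif in the promoters of 6 of these genes, 250 bases before to 50 after the start (Gjc1 was not matched in the table). RefSeq sequences of GRCm38.p6 were searched on both strands, and 3.6% of 21262 promoters hold the motif. The match covers bases 13 to 20 after the start, at 58822961 to 58822968 on the plus strand of chromosome 9, and stands in capitals in the 26 bases that follow, 5′ to 3′.
Hcn4: ggcggaggcTGATGTAAgcccggcgg
No list had a peak over it, and the nearest series-wide peak lay 4.91 kb from the start. A match of letters is a description of the sequence and not a binding site.

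Hcn2 (chromosome 10, 79716634 to 79736108, plus strand) had 6 series-wide peaks, a density of 10.1 per 100 kb that exceeded that of 96.2% of all genes. The strongest, at 79712542 to 79713092, lies 3.97 kb upstream of the start, between Hcn2 and its neighbour Bsg, whose model ends 0.563 kb away. It had 22.5-fold enrichment in replicate 1 and 19.1-fold in replicate 2. A peak inside the gene, at 79729388 to 79730197, had nearly equal values of 20.0-fold and 20.4-fold. A further peak, 15.2 kb upstream, had 19.5-fold and 21.7-fold. Of the upstream peaks, 2 lay on the model of Bsg, which encodes basigin, a partner of lactate transporters, and with 3 other genes in the window the peaks cannot be assigned to Hcn2 by position alone. With the gene body alone, Hcn2 kept 2 of its 6 peaks, including the 20.4-fold one.

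The connexin genes differed in where their peaks lay. Gja1 (chromosome 10, 56377300 to 56390419, plus strand) had a single series-wide peak, at 56377056 to 56377435, which spans the start of the gene with its summit 0.074 kb before it. The fold was 11.5 in replicate 1 and 11.1 in replicate 2, or 11.3 ± 0.296 (SD, n = 2), the lowest of the 6 highest folds and among the closest pairs of replicate values. The series-wide fold was above that of 30.4% of all peaks. A further 5 peaks in replicate 1 and 4 in replicate 2, all at most 7.54-fold, did not enter the series-wide list. No other protein-coding gene lies in its window.

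The bases before the start of Gja1 are printed with those of Gja5, because the pair contrasts a connexin promoter under a peak with one that has none. The peak of Gja1 covered 244 of its 250 bases in replicate 1 and in the series-wide list, and all 250 in replicate 2, whereas 0 of 250 were covered at Gja5 in any list. Both sequences run 5′ to 3′ on the plus strand to the base before the RefSeq start (GRCm38.p6), at chr10:56377050-56377299 and chr3:97032152-97032401. Capitals mark the AP-1 site TGAGTCA, which bZIP dimers of the FOS, JUN and ATF families are known to bind, and TGACG, the core of the cAMP response element.
Gja1: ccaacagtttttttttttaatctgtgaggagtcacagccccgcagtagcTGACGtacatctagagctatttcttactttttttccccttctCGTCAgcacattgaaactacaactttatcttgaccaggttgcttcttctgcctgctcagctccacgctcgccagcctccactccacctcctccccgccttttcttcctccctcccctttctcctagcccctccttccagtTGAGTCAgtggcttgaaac
Gja5: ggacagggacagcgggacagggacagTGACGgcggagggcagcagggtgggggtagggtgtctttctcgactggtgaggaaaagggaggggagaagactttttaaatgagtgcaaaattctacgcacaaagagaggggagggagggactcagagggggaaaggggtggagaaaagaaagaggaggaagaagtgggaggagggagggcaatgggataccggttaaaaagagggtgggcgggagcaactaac
In Gja1 the AP-1 letters begin 19 bases before the start, and 4.66% of all promoters hold them. The shorter TGACG, read on either strand, occurs at 201 and 159 bases before the start of Gja1 and at 224 bases before that of Gja5, and 23.6% of promoters hold it. Scn10a, where no list covered any of the 250 bases before the start, holds TGACG at 85, 30 and 10 bases before it. TGACG thus does not set the promoter under a peak apart. The AP-1 letters were found in Gja1 alone of the 6 promoters searched, which was also the only one with a peak over it. With no other promoter under a peak, whether these letters go with peaks was not tested. Both the AP-1 motif and TGACG were added after the sequences had been read. The full cAMP response element TGACGTCA (2.23% of promoters) and the MEF2 motif, searched as CTA and TAG with 4 free bases between them (3.47%), both read on either strand, were in none of the 6 promoters. GC content of the promoter was 47.7% in Gja1 and 55.7% in Gja5, against a median of 56.3% over all promoters, and it was 51.7% in Scn10a, 66.3% in Scn4b, 71.7% in Hcn4 and 72.3% in Hcn2.

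Gja5 (chromosome 3, 97032402 to 97053634, plus strand) had 4 series-wide peaks, 3 of them downstream of the gene. The strongest, at 97071918 to 97072249, lies 18.3 kb past the end of the model. It had 12.5-fold enrichment in replicate 1 and 18.6-fold in replicate 2, or 15.6 ± 4.32 (SD, n = 2), so replicate 2 stood higher. A neighbour 0.299 kb further on had 10-fold and 9.31-fold. The peak inside the gene, 4.85 kb past the start, had 7-fold and 8.87-fold. No other protein-coding gene model lies within 85 kb of the downstream peaks. When only 5 kb around the gene was counted, 1 peak remained, and the highest series-wide fold was then 8.87.

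Gjc1 (chromosome 11, 102799477 to 102819686, strand not given in the sources used here) had 6 series-wide peaks, or 9.97 per 100 kb. The strongest, at 102819374 to 102819789, covers the upper end of the model and runs 103 bp past it. It had 17-fold enrichment in replicate 1 and 19.9-fold in replicate 2, or 18.5 ± 2.08 (SD, n = 2). It was the stronger of the peaks at a gene end among the 7 genes, above the 11.5 and 11.1 of Gja1 in both replicates. A peak 11.9 kb beyond the upper end had 9-fold in replicate 1 and 13.7-fold in replicate 2, the widest gap towards replicate 2 among the 23 peaks at 0.655 times. That peak lies nearer to Higd1b, a neighbouring gene 3.81 kb away. The peaks inside the gene body away from its ends were weak, with series-wide folds of 9.5 and 8.

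**Figure D2:**
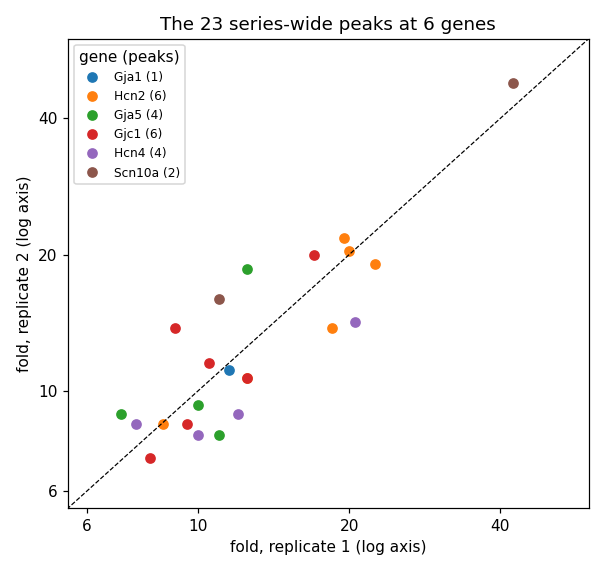
Fold enrichment of the 23 series-wide peaks in replicate 1 (x axis, log) and replicate 2 (y axis, log), coloured by gene, with the line of equality dashed; a peak of Hcn2 and a peak of Gjc1 share the point at 12.5 and 10.6. One peak of Scn10a stands apart at 42.5 and 47.9, and the other 22 lie between 7 and 22.5 in both replicates.

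Across the 23 peaks, which come from a list that combines both replicates, the replicates gave close values. Replicate 1 was higher at 13 peaks and replicate 2 at 10, with a median ratio of replicate 1 to replicate 2 of 1.04 and a range from 0.655 to 1.45. Over all series-wide peaks found in both replicates the median ratio was 0.972, with 10th and 90th percentiles of 0.705 and 1.33. Summits of the 23 peaks lay a median of 24 bp apart, against 21 bp over all such peaks. The largest distance was 253 bp, at the Gjc1 peak 15.5 kb below the gene. Peaks outside the series-wide list were weak throughout. There were 7 in replicate 1 alone and 12 in replicate 2 alone, at most 8.5-fold, and 9 peaks of replicate 1, at most 8-fold, overlapped a replicate 2 peak without entering the series-wide list.

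Ordered by the mean highest fold, Scn10a (45.2) led, followed by Hcn2 (22.1 ± 0.552), Gjc1 (18.5), Hcn4 (17.3), Gja5 (15.6) and Gja1 (11.3), with Scn4b without a peak. The ranges of replicate values of Gjc1, Hcn4 and Gja5 overlapped, so their order is not resolved by these samples. Hcn2 lay above Gjc1, Gja5 and Hcn4 in both replicates, and Gja1 lay below each of these in both, most narrowly in replicate 1 with 11.5 against 12.5 for Gja5. The genes whose highest folds and peak numbers in the 2 replicates were most like those of Scn10a, among 16636 genes with a peak in both, were Bin1 (43.0-fold and 48.3-fold), followed by Slc25a41 and Slc25a23 (49.0-fold and 48.8-fold each, equal values). For Hcn2 they were Wdtc1, Tmem50a and Prpsap1. This likeness rests on 4 values per gene.

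**Figure D3:**
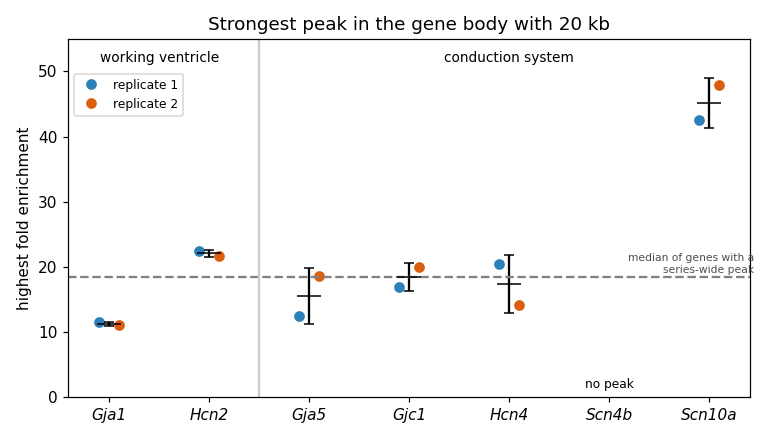
Highest fold enrichment in the gene body with 20 kb in replicate 1 (blue) and replicate 2 (orange), with the mean and SD in black (n = 2), for the working ventricle genes on the left and the conduction system genes on the right. The dashed line is the median series-wide highest fold (18.5) of all 14928 genes with a peak; Gja1 lies below it, Hcn2 and Scn10a above it in both replicates, and Scn4b has no value.

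The working ventricle genes were then set beside the conduction system genes. Gja1 and Hcn2 had highest series-wide folds of 11.5 and 22.5, while those of the conduction system genes ran from no peak at Scn4b through 18.6, 19.9 and 20.5 to 47.9 at Scn10a. The medians were 17 for the working ventricle genes and 19.9 for the conduction system genes, and the ranges overlapped. Peak numbers were 7 over the 2 working genes and 16 over the 5 conduction genes, or medians of 3.5 per working gene and 4 per conduction gene. The direction of this difference of -0.5, working minus conduction, turned to 0.5 in replicate 1 alone and to 1 in replicate 2 alone and with the strongest 20% of peaks. Per 100 kb of window the medians were 5.99 for working genes and 4.99 for conduction genes. In each class 1 gene had a peak at a gene end. The difference of medians in highest fold, working minus conduction, was -2.95 over series-wide peaks, 0 in replicate 1 alone and -2.22 in replicate 2 alone. It was 11.3 when only the 20% of peaks with the highest fold were kept, since most of the conduction system genes then had none. With so few genes, all read from the same libraries, the classes were not tested against each other.

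Broader lists gave another picture at gene ends. All 14 working ventricle muscle genes had a series-wide peak there, against 4 of 15 conduction system transcription factors and markers (26.7%) and 34.9% of all genes. In each replicate list 7 of the 15 had one, and 14 of 14 working ventricle muscle genes, against 48.2% and 50.2% of all genes. The median highest fold in the gene body with 20 kb was 49 in the working ventricle list and 13.7 in the conduction system list, and 13.5 over all genes. The strongest of the conduction list were Cpne5 (53.2-fold) and Cacna1g, a T-type calcium channel gene (35.5-fold), neither with a peak at a gene end, while Bmp2 and Cntn2 had no series-wide peak in the window. Both lists were drawn up with earlier results of these data known, their difference was not tested, and Gja1 and Hcn2 are in neither.

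Relatives of the 7 genes were read in the same way. Of 12 other genes of the sodium channel family and its kin, 2 had a series-wide peak at a gene end (16.7%, against 34.9% of all genes) and 9 in the gene body with 20 kb (75%, against 68.2%). At gene ends 5 had one in the list of replicate 1 and 4 in that of replicate 2, against 48.2% and 50.2% of all genes. In the gene body with 20 kb 9 of the 12 had one in replicate 1 and 8 in replicate 2, both shares below the 78% and 79.2% of all genes. The highest fold among them, 41.5 in the series-wide list, was at Scn3b, another beta subunit gene, with 36.5 ± 7.09 over the replicates (SD, n = 2). Of 17 other connexin genes 3 had a peak at a gene end (17.6%, against 34.9% of all genes) and 8 in the wider window (47.1%, against 68.2%). The lists of replicates 1 and 2 gave 4 and 5 at gene ends, against 48.2% and 50.2% of all genes. In the wider window they gave 10 and 12, against 78% and 79.2% of all genes. Gjd3, which encodes a connexin of the mouse conduction system, had 36.5-fold in replicate 1 and 22.6-fold in replicate 2. Of 4 other genes of the pacemaker channels and their partners, 0 had a series-wide peak at a gene end (34.9% of all genes). In the wider window 3 had one (68.2% of all genes). There 1 had a peak in the list of replicate 1 and 2 in that of replicate 2, against 78% and 79.2% of all genes. Among these 4 genes the series-wide peak at Kcne2 (43.4-fold) was matched by no peak of either replicate in the window, so that fold has no replicate values behind it here.

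Genes of the intercalated disc and of channel anchoring, the structures that hold connexins and sodium channels at the cell ends, had peaks more widely. Of 22 such genes, 11 had a series-wide peak at a gene end (50%) and 21 in the gene body with 20 kb (95.5%), against 34.9% and 68.2% of all genes. At gene ends 16 had one in the list of replicate 1 and 17 in that of replicate 2, against 48.2% and 50.2% of all genes. Cdh2, which encodes N-cadherin, had 73.0-fold in replicate 1 and 70.0-fold in replicate 2, and Pkp2, of the desmosome, had 58.0-fold and 47.4-fold. Rangrf had no series-wide peak. The median highest fold of this list was 36.0, against 19.9 for the 7 genes and 13.5 for all genes. Shares and highest folds are not adjusted for gene length. Per 100 kb of window the median was 4.04 peaks, below the 4.99 of the 7 genes and above the 1.99 of all genes. No test of the list was made.

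**Figure D4:**
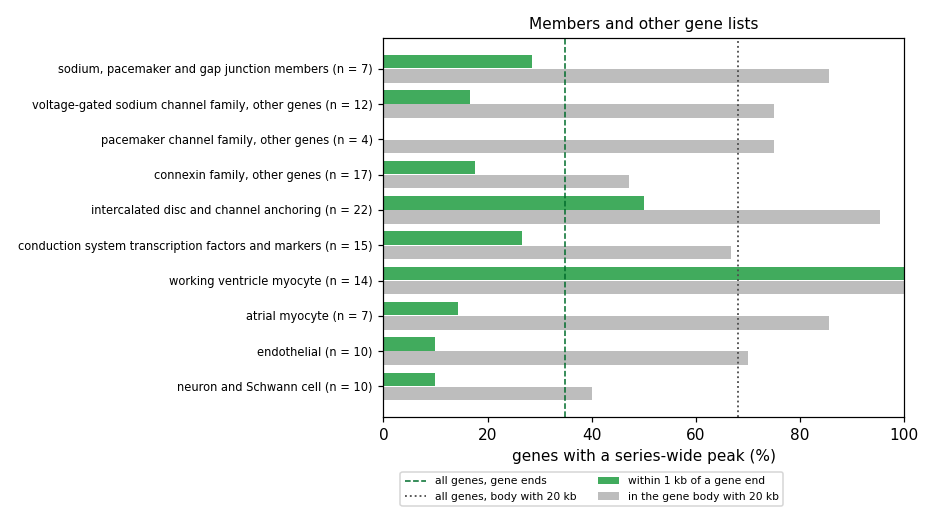
Share of genes with a series-wide peak (x axis, percent) at the gene ends (1 kb, green bars) and in the gene body with 20 kb (grey bars), for the 7 sodium, pacemaker and gap junction genes and 9 other lists; dashed and dotted lines give the shares of all protein-coding genes, 34.9% and 68.2%. The 7 genes lie at 28.6% and 85.7%, and the working ventricle muscle list reaches 100% in both windows.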

How the data were processed

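Peaks were measured in 2 ATF4 pull-down samples; 3 peak lists were used, and 0 value columns had no sample. Per the submitters' processing notes, Bowtie2, MACS2, deepTools and build mm10 were involved, without role or version. The series-wide list holds a fold enrichment (a ratio) per peak, as deposited by the authors, and each replicate list the −log10 of a p-value or q-value; the deposited files do not say which. At peaks of identical position and summit (17420 and 21053, with 0 and 6 exceptions) each −log10 value paired with 1 fold, and replicate folds were read from that relation, with steps continued for values that no such peak matched. In 40642 of 40643 peaks found in both, the series-wide fold was the higher of the replicates' values. Depth is unknown.

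Peaks within 1 kb of either gene end, or in the gene body with 20 kb, counted with an overlap of 1 bp. Gene models were RefSeq GRCm38.p6 spans, without exons; the starts of 6 of the 7 genes came from its promoter table. All 118 list entries matched a symbol. The genes and lists were chosen with earlier results of these data known. All 7 genes are described; other lists name genes by highest fold, and first alphabetically without a peak. Alternatives were other windows, overlaps, peak thresholds and single replicates. Overlap and motif search were tested on simulated data. Python 3.11.15, NumPy 2.4.6, pandas 2.3.3 and Matplotlib 3.10.9 were used.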

Additional observations from a re-analysis of the deposited data

How the results depend on the processing

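The count of 2 genes with a peak at a gene end rose to 5 with 5 kb around the ends and fell to 0 with the strongest 20% of peaks. The count of 6 in the gene body with 20 kb was 2 with those peaks and 6 under the other alternatives. The 23 peaks became 13 with 5 kb around the gene body, 11 with the gene body alone, 3 with the strongest 20% and 41 to 43 in single replicates. The median highest fold of 19.9 was 17 to 18.6 in single replicates and 0 with the strongest 20%, where most genes had no peak. The difference of medians in highest fold, working minus conduction, was 11.3 with the strongest 20%, -2.22 to 0 in single replicates, -4.00 with the gene body alone and -8.72 with Hcn2 counted as a conduction gene, an alternative chosen after seeing the data. The difference in peak number, -0.5, became 0 with 5 kb around the gene body, 1 with the strongest 20%, 0.5 to 1 in single replicates and -3 with Hcn2 moved. Each shift follows from the changed window, peak set, replicate or class; no further cause was tested. Requiring the midpoint or 50% of a peak in the window, or a peak in both replicates, changed none of these values. The last of these could not, because all 23 peaks overlap a peak in both replicates. For single genes, 78 of 112 values of highest fold and peak number stayed within 1.5 times (peak number) or 1 SD of the replicates (fold), and 34 moved further. The 78 include every value at Scn4b, which had no peak under any alternative. They also include every value under the midpoint, 50% and both-replicates alternatives. For highest fold at the 6 genes with a peak, the outcome of leaving out a replicate was also fixed beforehand. The series-wide fold is the higher replicate value, so leaving out the lower replicate keeps it. Leaving out the higher replicate always shifts it by more than 1 SD of the replicates. Neither 78 nor 34 is therefore a measure of how stable the values were. No paired analysis was possible because the input samples have no values here and 1 group has no contrast. Depth is unknown, so the chance of missing weak peaks, at Scn4b for example, cannot be given.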
